A study of Homo sapiens with 120 samples.

Results

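The rafts described here carried cells of CFPAC-1, a long-established line from a human pancreatic duct cancer, treated with 2 nM gemcitabine. Of the 120 RNA sequencing libraries of the study, 16 belong to that arm: 8 from rafts labelled proliferative and 8 from rafts labelled nonproliferative. They were chosen by the treatment and proliferation labels and by no measured value. A microraft is a small detachable culture element of an array, so that the cells on it can be watched and then lifted off for RNA. The study also holds rafts in an untreated, a saline and a 5 nM gemcitabine arm, bulk RNA, rafts and Fluidigm C1 captures with a known number of cells, and water blanks. Libraries were prepared with SMARTer amplification followed by Nextera XT. In the 2 nM arm the labels give the cell number as unknown, so the class of a raft and its number of cells cannot be told apart, nor can fewer cells and less RNA per cell. They name no separate cultures, so the p-values measure the spread between rafts, which may be technical, and they give no duration of treatment.

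Gemcitabine is a cytidine analog. Nucleoside carriers such as SLC29A1 take it up, the kinase DCK phosphorylates it and the deaminase CDA inactivates it, and its active forms block ribonucleotide reductase (RRM1 with RRM2) and end the growing DNA strand. A cell held in S phase by such a block can keep the transcripts of replication and mitosis for some time or leave the cycle and lose them, and the inhibitor CDKN1A is a common target of p53 in that response.

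The 16 libraries differed widely in how many genes they held. Proliferative replicates 1 to 8 had 6440, 2897, 9494, 2927, 8379, 10206, 2626 and 472 genes at an FPKM (fragments per kilobase of transcript, scaled to the fragments of the library) of 1 or more. Nonproliferative replicates 1 to 8 had 1466, 9074, 6195, 1312, 5104, 1137, 510 and 1604. The classes overlapped from end to end: the means were 5430 ± 3668 and 3300.2 ± 3108 genes (SD, n = 8 each), and the difference of 2130 had an exact two-sided permutation p = 0.227.

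Likeness to bulk divided the libraries more sharply. Spearman rho with the mean of the 4 bulk libraries, taken over the 10767 genes that averaged at least 1 FPKM in bulk, lay between 0.419 and 0.789 in proliferative replicates 1 to 6 and was 0.716, 0.662 and 0.496 in nonproliferative replicates 2, 3 and 5. The other 7 libraries lay between -0.071 and 0.109, where the 10 empty rafts lay between -0.052 and 0.030. Class means of rho were 0.474 ± 0.303 and 0.222 ± 0.341 (SD, n = 8 each), a difference of 0.252 (exact two-sided permutation p = 0.139). Each rho is across genes, and genes are not independent replicates. Below, the comparison is given over the 14 libraries with at least 1000 genes (7 against 7) and again over the 9 with a rho of at least 0.25 (6 against 3), called the bulk-like libraries. Among these 9 the class means differed by -67.2 genes (exact permutation p = 1.0) and by -0.006 in rho (p = 0.976). The 9 were selected by these same values, so the p-values cannot show that the classes were balanced. Genes detected ran from 2897 to 10206 in the proliferative and from 5104 to 9074 in the nonproliferative libraries. Proliferative replicates 2 and 4 were the sparse ones of the 9, below the 4804 genes of the lowest raft with 1 cell.

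**Figure D1:**
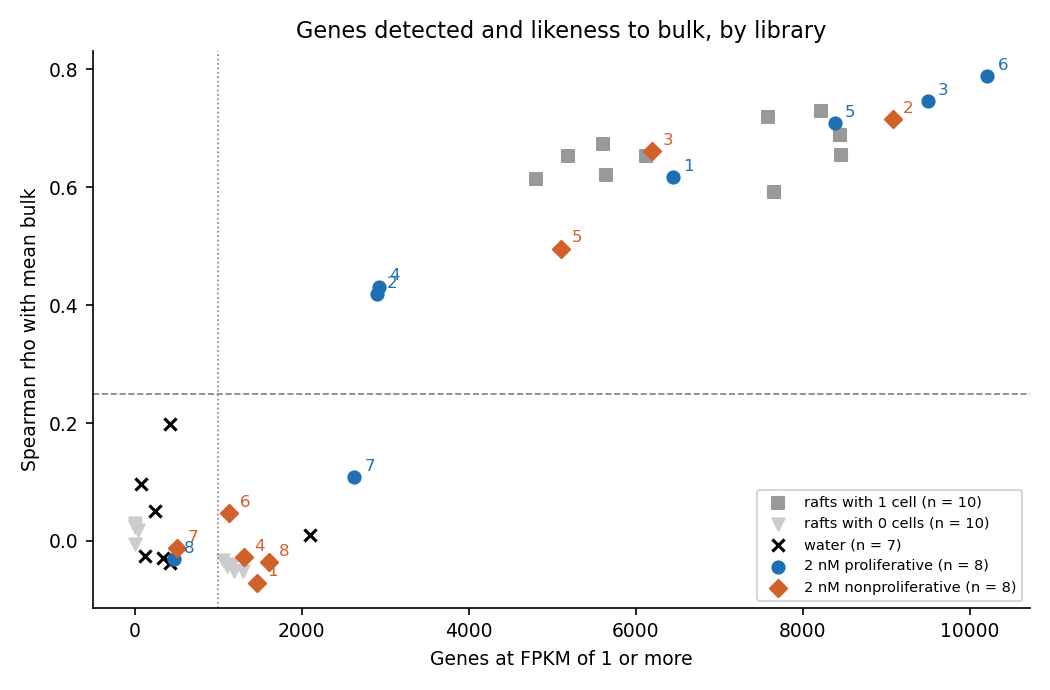
Genes at an FPKM of 1 or more (horizontal) against Spearman rho with mean bulk (vertical), 1 point per library, with the replicate numbers of the 2 nM libraries beside their points. The dotted line is at 1000 genes and the dashed line at a rho of 0.25. The first and not the second is passed by 4 nonproliferative libraries and proliferative replicate 7. Those 4 lie near the empty rafts and water. Proliferative replicate 7, with 2626 genes and a rho of 0.109, lies above every empty raft in both values.

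The labelled cell type was checked against genes of ductal epithelium and of other cells. KRT18 and KRT8, the paired keratins of simple epithelium, and KRT7 of ducts were detected in each of the 9 bulk-like libraries, and EPCAM, an epithelial adhesion protein, in 7 of 9. Of the 30 epithelial and ductal markers in the table, CFTR, the chloride channel of ducts, was at 0 in all 9, and KRT20, CDH3 and LGALS4 were at 0 in the 3 nonproliferative ones. Of 12 blood cell markers, 10 were at 0 in all 9 libraries, including PTPRC, CD3D and HBB, and CD68 and LAPTM5 were detected. Of 9 fibroblast markers 7 were at 0 in all 9, including COL1A2, DCN and LUM. The other 2 were detected in both classes. The summed level of that list reached 110.53 FPKM in the proliferative and 61.76 FPKM in the nonproliferative libraries. Defining keratinocyte genes (KRT1, KRT2, KRT9, KRT14, LOR and FLG) were at 0 in all 9, while KRT10 and DMKN were not, and KRT5 was detected among the proliferative libraries and at 0 in the 3 nonproliferative ones. Of 7 endothelial markers CDH5, TEK and CLDN5 were at 0 in all 9, and the summed level of the list reached at most 8.15 FPKM. KRT19, ACTB and GAPDH were not analysed here.

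Gene levels were tested as log2(FPKM + 1) in 1 limma fit over all 4 arms and 11560 genes. An FPKM of 0 in these libraries is given as listed at 0, because genes used by every cell are also at 0 in the libraries that resemble blanks, and a difference against such values is set by the pseudocount and is no fold change.

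Among the libraries with at least 1000 genes, 2 genes were higher in proliferative rafts and none was lower at a limma adjusted p under 0.05. This was 0.0173% of the genes tested for higher and 0.0% for lower, while an unadjusted p under 0.05 was reached by 1152 higher genes (9.97%) and 196 lower genes (1.7%). MCCC1 encodes a subunit of the mitochondrial enzyme that breaks down leucine. It stood at 45.1, 1.95, 25.6, 225, 33.8, 23.6 and 27.3 FPKM in proliferative replicates 1 to 7 and was listed at 0 in all 7 nonproliferative libraries, the bulk-like replicates 2, 3 and 5 included. The groups did not overlap (adjusted p = 0.0386). WDR4, the partner of the METTL1 tRNA methyltransferase, stood at 35, 176, 23.6, 0, 48.5, 7.06 and 2697 FPKM in the same proliferative replicates and reached 6.32 FPKM in nonproliferative replicate 2, the only library of its class above 0. It differed by 4.92 ± 1.05 (SE, adjusted p = 0.0386), and its highest value came from proliferative replicate 7, which has a rho of 0.109. Both calls were lost in the bulk-like libraries (adjusted p = 0.454 for MCCC1 and 0.998 for WDR4), where the difference on the log2(FPKM + 1) scale was 4.90 for MCCC1, beside 4.89 in the larger set, and 3.36 for WDR4. Both were also lost on leaving out proliferative replicate 5 or nonproliferative replicate 1, 3, 4, 5, 6 or 8 (adjusted p from 0.0796 to 0.126). MCCC1 alone was lost without proliferative replicate 4 (0.0994), and WDR4 alone without proliferative replicate 2 or 7 (0.102 and 0.080).

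Other genes with small p-values in this set did not pass, and most were listed at 0 in nearly every nonproliferative library. GTPBP4, a GTPase of ribosome assembly, ran from 38.3 to 1916 FPKM over 7 proliferative libraries and was at 33.4 and 9.69 FPKM in nonproliferative replicates 2 and 3 and at 0 in the other 5 (adjusted p = 0.158). CAV1, the coat protein of caveolae, ran from 68.2 to 1712 FPKM against 34.7 and 17.8 FPKM in the same 2 libraries and 0 elsewhere (adjusted p = 0.195). OGFOD1, a ribosomal protein hydroxylase, was at 32.5 to 162 FPKM in proliferative replicates 1 to 6, and 9.6 FPKM was its only nonproliferative value (adjusted p = 0.243). KRT86 had an adjusted p of 0.0502, but it and KRT81 are near-identical keratin genes between which reads can be divided, so both are uncertain.

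In the 9 bulk-like libraries the calls ran the other way: 5 genes were lower in proliferative than in nonproliferative rafts and none was higher. These are 0.0433% and 0.0% of the genes tested, and an unadjusted p under 0.05 was reached by 384 lower genes (3.32%) and 154 higher ones (1.33%). CYP4F3, a cytochrome P450 that hydroxylates leukotriene B4 and long fatty acids, stood at 8.29, 35 and 50.1 FPKM in nonproliferative replicates 2, 3 and 5. In proliferative replicates 3 and 6 it stood at 1.78 and 4.37 FPKM, and in replicates 1, 2, 4 and 5 it was listed at 0. The groups did not overlap, and the difference was -4.04 ± 0.59 (SE, adjusted p = 2.19e-04). GJB1, the gap junction protein connexin 32 of polarised epithelia, stood at 42.6, 24.8 and 153 FPKM in the nonproliferative libraries and at 6.06 and 2.6 FPKM in proliferative replicates 3 and 5. It was listed at 0 in the other 4 proliferative libraries, and the difference was -5.02 ± 0.92 (adjusted p = 0.0109).

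The other 3 called genes were listed at 0 in all 6 proliferative bulk-like libraries. SLC34A2, a sodium-phosphate cotransporter of the apical membrane, stood at 58.8, 13.7 and 19.6 FPKM in nonproliferative replicates 2, 3 and 5 (adjusted p = 0.0212). HLA-DQB2, a class II histocompatibility chain, stood at 7.01, 41 and 17.6 FPKM in those libraries (adjusted p = 0.0475). PLEKHG1 was at 3.7 and 26.3 FPKM in nonproliferative replicates 3 and 5 (limma adjusted p = 0.0466). It was at 0 in replicate 2, so its groups touch at 0. It was also at 44.3 and 21.2 FPKM in nonproliferative replicates 4 and 6, which resemble blanks. In bulk-like libraries of the other arms it was above 0 in only 1, at 1.38 FPKM (5 nM, nonproliferative). Its pooled SE thus draws on groups without spread, and it was tested only because libraries outside the bulk-like set also held it. None of the 5 genes was above 0 in the water library of the arm, though SLC34A2 reached 484 FPKM in another water library. In the 4 bulk libraries GJB1 lay between 0 and 12.4 FPKM, and the other 4 reached at most 2.96 FPKM. The nonproliferative values of all 5 therefore included levels above any bulk library.

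The calls in the bulk-like libraries depended on the pooled spread. With the 2 nM libraries fitted alone none passed (adjusted p = 0.869 for CYP4F3, 0.812 for GJB1, 0.147 for SLC34A2, 0.179 for HLA-DQB2 and 0.869 for PLEKHG1), and with a pseudocount of 0.1 none passed either (adjusted p from 0.0532 to 0.206). CYP4F3 kept its call in 13 of 15 alternatives and GJB1 in 10 of 15, against 6 of 15 for SLC34A2, 3 of 15 for HLA-DQB2 and 2 of 14 for PLEKHG1.

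**Figure D2:**
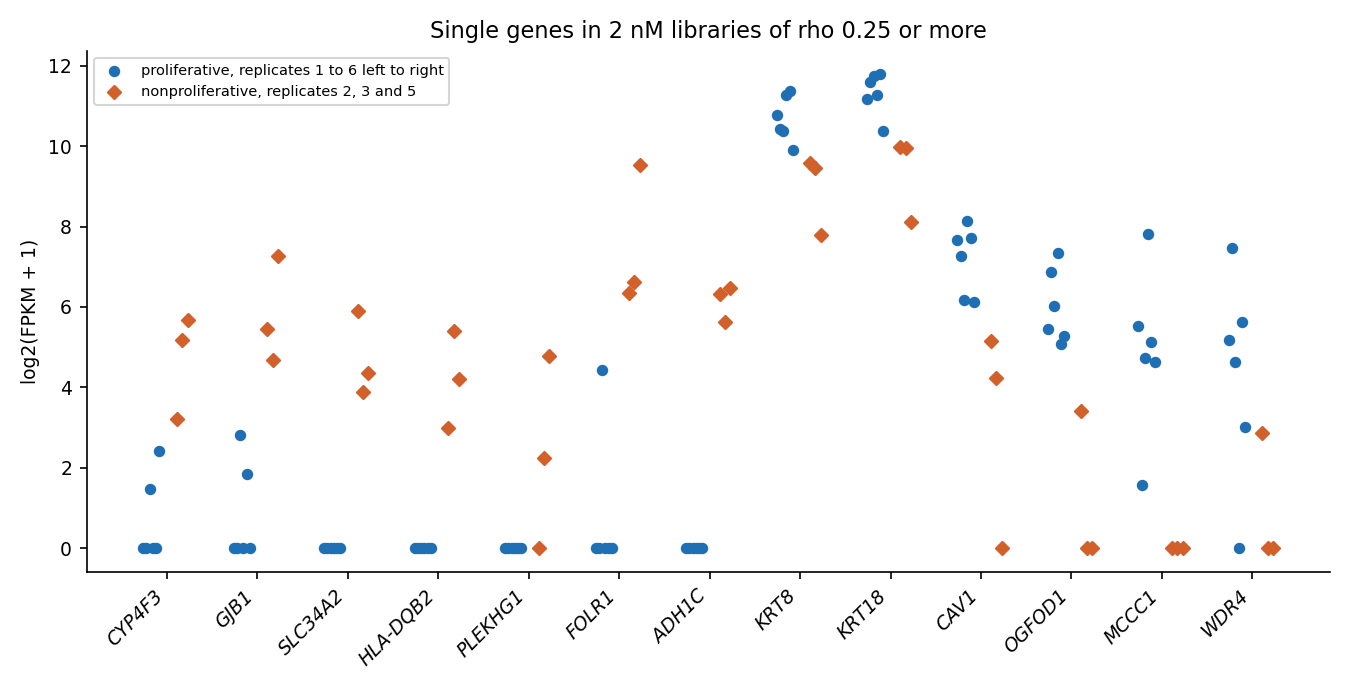
Level of 13 genes in the 9 bulk-like libraries as log2(FPKM + 1), 1 point per library. For the 5 genes at the left and for FOLR1 and ADH1C most or all proliferative libraries are at 0, while KRT8, KRT18, CAV1 and OGFOD1 are higher in each of the 6 proliferative libraries than in any of the 3 nonproliferative ones.

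Groups that did not overlap at all among the bulk-like libraries were more often lower than higher in proliferative rafts: 166 genes (1.44% of those tested) against 65 (0.562%). For values without ties, random class labels at 6 against 3 would give a share of 0.0119 in each direction. These counts were not tested. Further genes that were higher in all 3 nonproliferative libraries did not pass and are given as values only. FOLR1, a folate receptor of the cell surface, stood at 79.7, 96.8 and 736 FPKM in nonproliferative replicates 2, 3 and 5 and above 0 in a single proliferative library, at 20.7 FPKM in replicate 3 (adjusted p = 0.062). ADH1C, an alcohol dehydrogenase, stood at 79.3, 48 and 87.2 FPKM and was listed at 0 in all 6 proliferative libraries (adjusted p = 0.103), while bulk lay between 253 and 309 FPKM. FAM13A (9.98 to 16.5 FPKM against at most 0.76), PIBF1 (2.31 to 41.1 against at most 1.93) and NHLRC3 (3.84 to 32.3 against at most 3.49) were likewise above all proliferative libraries, with adjusted p = 0.088, 0.075 and 0.106. PROM1, an apical membrane protein also used as a stem cell marker, stood at 21.1, 111 and 153 FPKM against 0 to 19.7 FPKM (adjusted p = 0.919). ALDH1A1, a retinal dehydrogenase, stood at 327, 316 and 368 FPKM against 25.5 to 175 FPKM (adjusted p = 1).

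Among genes with higher values in proliferative bulk-like libraries, KRT18 and KRT8 lay above all nonproliferative ones. They were the only 2 of 26 epithelial markers to do so, beside 0.562% of all genes tested. In the other direction, 1 of the 26 lay below all nonproliferative libraries, beside 1.44% of all genes. No gene of this paragraph passed the test. KRT18 stood at 2313, 3076, 3415, 2460, 3519 and 1338 FPKM in proliferative replicates 1 to 6 and at 1013, 996 and 274 FPKM in nonproliferative replicates 2, 3 and 5. The difference was 1.97 ± 0.72 (adjusted p = 0.998). KRT8, its partner, ran from 948 to 2652 FPKM against 219 to 768 FPKM (1.74 ± 0.89, adjusted p = 0.998). SQSTM1, the autophagy receptor p62, ran from 477 to 793 FPKM against 204 to 467 FPKM. LGALS1, the lectin galectin 1, ran from 263 to 1207 FPKM and was at 553 FPKM in nonproliferative replicate 2 and at 0 in replicates 3 and 5, so it overlapped (adjusted p = 0.478). FOSL1, an AP-1 subunit, ran from 149 to 1735 FPKM against 31.2, 209 and 0 FPKM, with overlap (adjusted p = 0.680).

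Described by gene list, no member of any of 37 lists passed the adjusted test in either set, so the counts that follow are of signs and not of calls. In the libraries with at least 1000 genes lists of abundant genes had positive differences: all 68 ribosomal protein genes (median 4.31), all 31 proteasome genes (4.01), all 29 actin and motility genes (3.71) and all 59 oxidative phosphorylation genes (3.40). The median over all genes was 0.65. Of the 68 ribosomal protein genes 38 had an unadjusted p under 0.05 and a higher mean, and so did 16 of the 31 proteasome genes, beside the 9.97% of all genes. The 9 genes of the blank-associated list, which includes PCSK5, STX17 and TBC1D8B and was assembled from earlier results of these data, were all lower (median -3.72). The levels by library show which libraries carry this. All 68 ribosomal protein genes were detected in each of the 9 bulk-like libraries, 36 in proliferative replicate 7, and 2, 5, 14 and 14 in nonproliferative replicates 1, 4, 6 and 8.

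**Figure D3:**
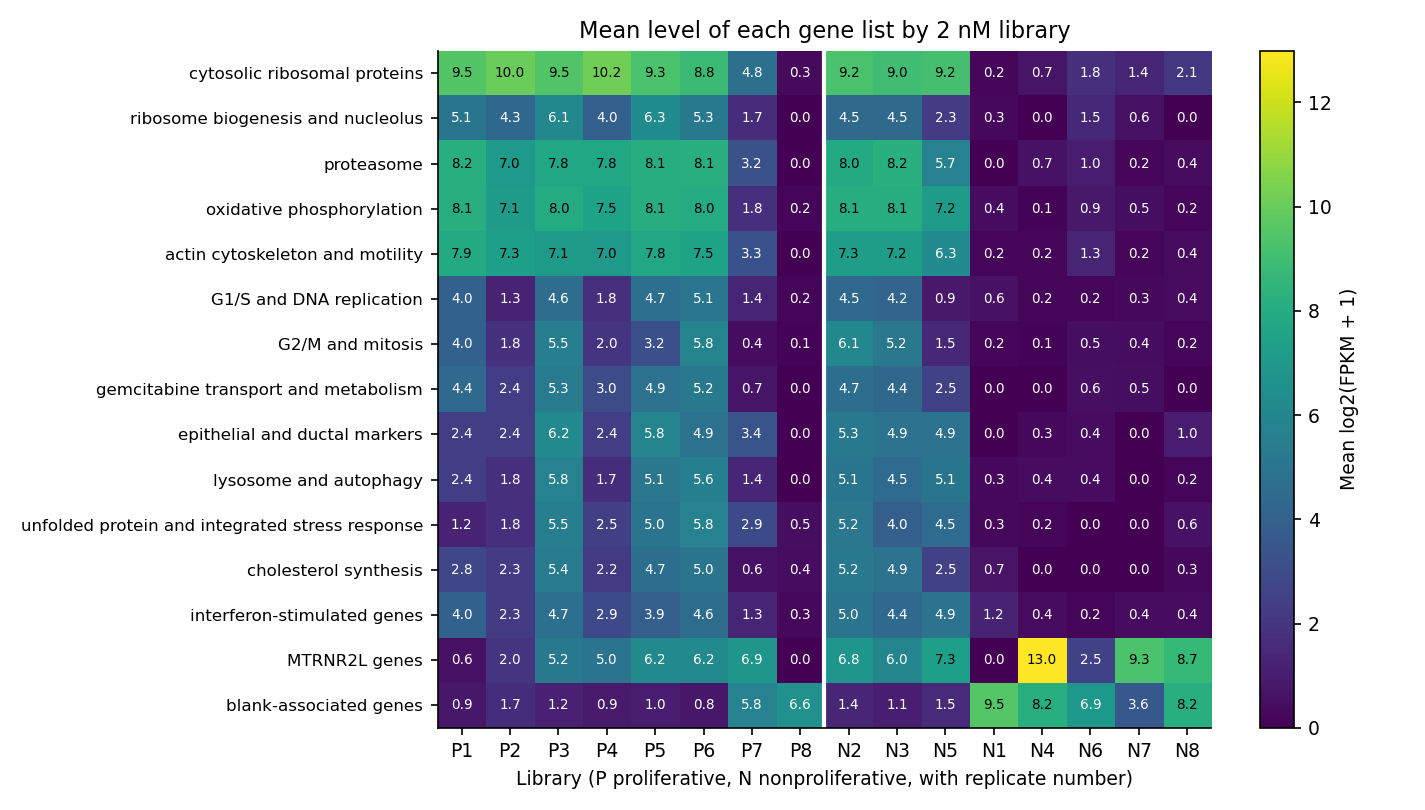
Mean log2(FPKM + 1) of 15 gene lists (rows) in each of the 16 libraries of the arm (columns, P for proliferative and N for nonproliferative with the replicate number). Ribosomal protein genes average 8.83 to 10.2 in P1 to P6, N2, N3 and N5 and at most 4.82 elsewhere, where blank-associated genes average 3.57 to 9.54.

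In the bulk-like libraries those medians shrank to near the median of all genes, which was 0.00. Ribosomal protein genes had a median of 0.47 (58 of 68 higher), proteasome genes 0.46 (25 of 31, and -0.06 without nonproliferative replicate 5), actin and motility genes 0.31 (22 of 29) and oxidative phosphorylation genes 0.03 (32 of 59). RPS14, of the small ribosomal subunit, ran from 2835 to 11035 FPKM in the proliferative libraries and from 2459 to 3514 FPKM in the nonproliferative ones, and these overlap. Genes of ribosome assembly and the nucleolus differed more, with 19 of 24 higher and a median of 1.48. Of these 24, 1 was higher at an unadjusted limma p under 0.05, beside 1.33% of all genes. Mean levels of the list overlapped, at 5.06, 4.35, 6.07, 3.98, 6.34 and 5.26 in proliferative replicates 1 to 6. They were 4.49, 4.48 and 2.31 in nonproliferative replicates 2, 3 and 5. POLR1C, a subunit shared by RNA polymerases I and III, stood at 54.9, 256, 240, 171, 132 and 107 FPKM in proliferative replicates 1 to 6 against 19.7, 8.28 and 0 FPKM in nonproliferative replicates 2, 3 and 5. The assembly factors DKC1 (31.7 to 199 against 0 to 33.7 FPKM), NIP7 (0 to 79.4 against 0 to 8.89 FPKM) and RRP12 (0 to 140 against 0 in all 3) were also mostly lower in the nonproliferative libraries, with overlap. The median of this list ranged from 0.56 to 1.86 on leaving out any 1 of the 9 libraries. The medians over 24 translation factors (0.50) and 13 immediate early genes (0.71) also stayed above 0, from 0.23 to 0.76 and from 0.24 to 1.08. So did those of the ribosomal protein genes (0.32 to 0.57) and of the actin and motility genes (0.09 to 0.73).

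**Figure D4:**
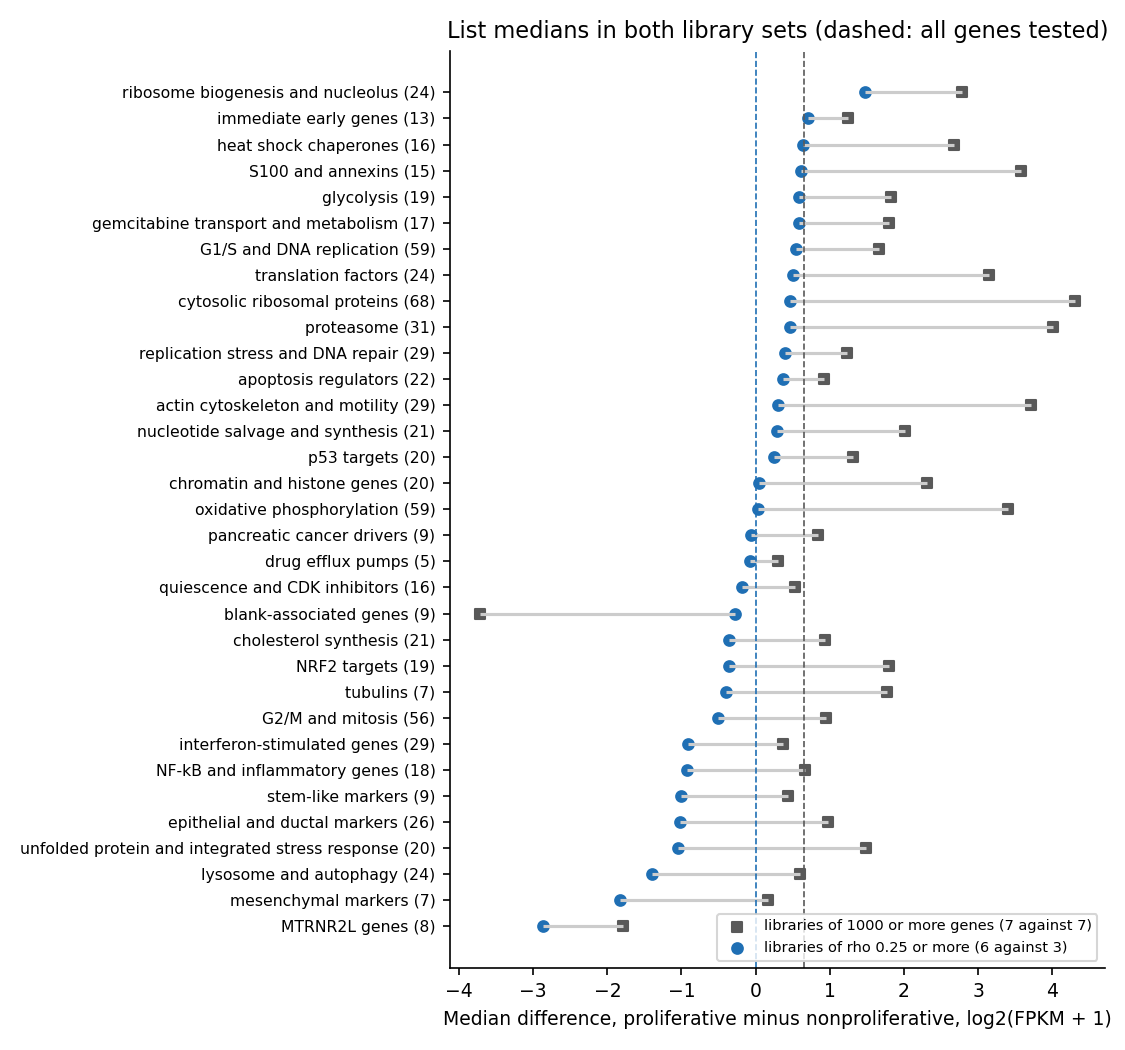
Median difference of each list with at least 5 genes tested (number in brackets), proliferative minus nonproliferative, in the libraries with at least 1000 genes (grey squares) and in the bulk-like libraries (blue circles), with dashed lines at the medians of all genes. The ribosomal protein median moves from 4.31 to 0.47 and the oxidative phosphorylation median from 3.40 to 0.03.

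Transcripts of mitosis did not follow the proliferation label among the bulk-like libraries. Of 56 G2/M genes 18 were higher in proliferative rafts and 38 lower, with a median of -0.51. TOP2A, the topoisomerase that untangles chromosomes, stood at 180 and 84.8 FPKM in nonproliferative replicates 2 and 3, above the 78.1 FPKM of the highest proliferative library, and at 0 in nonproliferative replicate 5. CDK1, the kinase of mitotic entry, stood at 179, 402 and 0 FPKM in nonproliferative replicates 2, 3 and 5, and at 86, 0, 38.3, 0, 27.5 and 243 FPKM in proliferative replicates 1 to 6. MKI67, the Ki-67 antigen, stood at 21.8, 17.6 and 0 FPKM and at 0, 0, 7.86, 0, 3.48 and 18.1 FPKM in the same order. Nonproliferative replicates 2 and 3 thus held these mitotic transcripts at levels among the highest of the arm, and replicate 5 held none of them.

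Read library by library, the mean level of the 56 G2/M genes was 6.07 and 5.19 in nonproliferative replicates 2 and 3 and 1.5 in replicate 5. In proliferative replicates 1 to 6 it was 4.02, 1.83, 5.54, 2.00, 3.18 and 5.80. The low proliferative values came from replicates 2 and 4, with 14 and 16 of the 56 genes detected. Without those 2 sparse libraries, an alternative added after their gene counts were seen, the G2/M median was 0.47 with 37 genes higher, so its sign depends on them. Leaving out any 1 library gave -2.06 to 0.41. NUSAP1, a spindle protein (338, 374 and 57.6 against 0 to 263 FPKM), and TUBA1C, an alpha tubulin (101, 102 and 70.8 against 0 to 192 FPKM), were detected in all 3 nonproliferative libraries. CCNB1, the cyclin that activates CDK1, overlapped as well, at 281, 282 and 0 against 87 to 305 FPKM.

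Transcripts of DNA replication leaned slightly to the proliferative class. The median over 59 G1/S genes was 0.54, with 39 higher. It was 1.52, with 53 higher, without proliferative replicates 2 and 4, and -0.84 to 0.88 on leaving out any 1 library. PCNA, the sliding clamp, stood at 243, 195 and 0 FPKM in nonproliferative replicates 2, 3 and 5 and ran from 8.26 to 202 FPKM in the proliferative ones. POLE, the leading-strand polymerase, was listed at 0 in all 3 nonproliferative libraries and ran from 0 to 13.9 FPKM in the proliferative ones. CCNE1, the cyclin of S phase entry, was likewise at 0 in all 3 and was above 0 in 3 of 6 proliferative libraries (365, 28.4 and 53.6 FPKM). TK1, the thymidine kinase of S phase, ran from 286 to 612 FPKM against 312, 290 and 0 FPKM. Nonproliferative replicate 5 listed TK1, PCNA, RRM2, CCNB1, CDK1, TOP2A and BIRC5 at 0 although it had 5104 genes, and 12 of the 59 G1/S genes were detected in it.

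Genes that handle gemcitabine were more often higher in proliferative bulk-like libraries, 13 of 17 tested with a median of 0.58 (-0.32 to 0.91 on leaving out any 1 library). CDA, which inactivates the drug, stood at 630, 359, 275, 518, 175 and 162 FPKM in proliferative replicates 1 to 6 and at 187, 80.3 and 44.7 FPKM in nonproliferative replicates 2, 3 and 5. The ranges overlapped by nonproliferative replicate 2 (1.82, adjusted p = 1). DCTD, the dCMP deaminase that acts on the drug's monophosphate, did not overlap: 78 to 430 FPKM against 16, 19.9 and 0 FPKM (4.24, adjusted p = 0.998, unadjusted p = 0.021). DCK, which activates the drug, was low in both classes, at 20.6, 0, 5.83, 0, 8.38 and 27.6 FPKM against 9.89, 66.6 and 0 FPKM. The uptake carrier SLC29A1 was detected in proliferative replicates 3, 5 and 6 (57.1 to 118 FPKM) and in nonproliferative replicates 2 and 3 (50.2 and 2.49 FPKM). RRM1 (0 to 80.9 against 1.33 to 63.4 FPKM), RRM2 (0 to 203 against 0 to 167 FPKM) and TYMS, thymidylate synthase (0 to 60.7 against 0 to 19.9 FPKM), overlapped over most of their range.

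Genes of arrest and damage gave no single direction. CDKN1A, the p21 inhibitor, was higher in each proliferative bulk-like library, at 46.4, 58.3, 65.4, 117, 54.7 and 219 FPKM, than in any nonproliferative one, at 44.3, 26.7 and 23.8 FPKM. Its difference of 1.35 did not pass (adjusted p = 1). GDF15, a secreted p53 target, was detected in proliferative replicates 3 and 6 (340 and 102 FPKM) and in nonproliferative replicate 5 (14.2 FPKM). The 20 p53 targets had a median of 0.25 with 12 higher, 29 genes of replication stress and repair 0.40 with 15 higher, 22 apoptosis regulators 0.37 with 14 higher, and 16 quiescence genes -0.18 with 7 higher. Each of these medians took both signs on leaving out 1 library (p53 targets -0.18 to 0.72, repair -0.35 to 0.78, apoptosis -0.18 to 0.86, quiescence -0.37 to 0.48). RB1, the retinoblastoma protein, stood at 5.38, 8.34 and 14.4 FPKM in the nonproliferative libraries and at 0 to 5.12 FPKM in the proliferative ones (adjusted p = 0.701). SMC6, of the complex that resolves damaged chromatids, was the reverse, at 1.01 to 163 FPKM and listed at 0 in all 3 nonproliferative libraries (adjusted p = 0.848).

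Genes of the membrane and secretory route had negative medians, with low levels in 3 of the 6 proliferative libraries. The medians were -1.40 for 24 lysosome and autophagy genes (17 lower), -1.05 for 20 genes of the unfolded protein and integrated stress response (14 lower), -1.02 for 26 epithelial and ductal markers (17 lower) and -0.35 for 21 cholesterol synthesis genes (13 lower). Proliferative replicates 1, 2 and 4 had mean lysosome levels of 2.42, 1.77 and 1.72, against 5.78, 5.13 and 5.62 in replicates 3, 5 and 6 and 5.06, 4.54 and 5.05 in nonproliferative replicates 2, 3 and 5. The epithelial list gave 2.37, 2.35 and 2.38, then 6.21, 5.84 and 4.86, then 5.26, 4.94 and 4.87 in the same order. For both lists proliferative replicates 3, 5 and 6 were therefore about as high as the nonproliferative libraries. Proliferative replicates 1, 2 and 4 stood below both groups. The cholesterol list did not divide that way. Nonproliferative replicate 5, at 2.55, was as low there as proliferative replicates 1, 2 and 4, at 2.78, 2.33 and 2.22.

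Single genes showed the same 3 libraries low. CTSA, a lysosomal protease, was listed at 0 in proliferative replicates 1, 2 and 4 and stood at 220, 114 and 183 FPKM in replicates 3, 5 and 6 and at 256, 245 and 684 FPKM in nonproliferative replicates 2, 3 and 5. NPC2, a lysosomal cholesterol carrier, was at 0 in the same 3 libraries and at 165 to 405 FPKM in the other 6. EPCAM was at 0, 53.7 and 0 FPKM in them and at 239 to 807 FPKM in the other 6, and CANX, an endoplasmic reticulum chaperone, was at 3.3, 0 and 0 FPKM against 96.9 to 233 FPKM. Proliferative replicates 1, 2 and 4 had 6440, 2897 and 2927 genes detected, and the 3 nonproliferative libraries had 5104 to 9074. In replicate 1 the 6 most abundant genes held 23.33% of the total FPKM, against at most 21.19% in the other bulk-like libraries. The cause of the low levels was not tested. The mean ribosomal protein level of these 3 libraries, at 9.49 to 10.2, was above that of the other 6, at 8.83 to 9.47. Without replicates 2 and 4 the lysosome median was 0.00 and the epithelial median -0.38.

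Interferon-stimulated and inflammatory genes were also mostly lower in proliferative bulk-like libraries, again with low levels in single proliferative libraries. Of 29 interferon-stimulated genes 21 were lower (median -0.92, and -1.28 to -0.51 on leaving out any 1 library), and 3 of them had an unadjusted p under 0.05, beside 3.32% of all genes. The mean level of this list was lowest in proliferative replicates 2 and 4 (2.33 and 2.91) and lay between 3.93 and 5.02 in the other 7. IFI6, an interferon-induced mitochondrial protein, stood at 47, 102 and 115 FPKM in nonproliferative replicates 2, 3 and 5 and above 0 only in proliferative replicates 3 and 6 (13.4 and 3.98 FPKM, adjusted p = 0.680). IFI27 went with neither class, at 1090 to 1902 FPKM against 827 to 2433 FPKM. ISG20 leaned the other way, at 0 to 265 against 95.7, 46 and 0 FPKM. Of 18 NF-kB and inflammatory genes 11 were lower (median -0.93). Their mean level was 1.12, 0.99 and 0.96 in proliferative replicates 1, 2 and 4, but 4.02, 3.03 and 4.57 in replicates 3, 5 and 6, beside 3.36, 4.07 and 2.36 in nonproliferative replicates 2, 3 and 5.

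Of 7 mesenchymal markers 6 were lower in the proliferative bulk-like libraries (median -1.83), with SNAI1, TWIST1, SPARC and MMP2 at 0 in all 9 libraries. The mean level was 2.19, 1.03 and 0.19 in proliferative replicates 1, 2 and 4, while replicates 3, 5 and 6, at 3.47, 4.05 and 4.53, lay within the nonproliferative range of 2.91 to 5.03. FN1, fibronectin, stood at 0, 51 and 346 FPKM in nonproliferative replicates 2, 3 and 5 and above 0 only in proliferative replicate 3 (6.58 FPKM, adjusted p = 1). VIM, vimentin, was at 187, 0 and 240 against 0 to 472 FPKM. The 7 detected MTRNR2L genes, nuclear relatives of a mitochondrial ribosomal RNA gene, were all lower (list median -2.87), with MTRNR2L2 at 1896, 1098 and 3063 FPKM against 3.47 to 1026 FPKM. That gene reached 115379 FPKM in nonproliferative replicate 4, which resembles the blanks. Part of the reads of such copies may be mitochondrial and cannot be told apart here.

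Leaving out 1 bulk-like library at a time gave medians of both signs for 21 of the 37 lists. Of the lists not described above, those with a median above 0.1 were heat shock chaperones (16 genes, 0.64), S100 and annexin genes (15, 0.61), glycolysis (19, 0.58) and nucleotide salvage and synthesis (21, 0.29). Without nonproliferative replicate 5 the heat shock median was -0.34, the glycolysis median -0.11 and the nucleotide median -0.90. Near 0 were chromatin and histone genes (20, 0.05), pancreatic cancer drivers (9, -0.06) and drug efflux pumps (5, -0.07). Below were NRF2 targets (19, -0.36), tubulins (7, -0.40) and stem-like markers (9, -1.01). Among these lists, only S100 and annexin genes (0.27 to 0.97) and stem-like markers (-1.80 to -0.54) kept their sign throughout. The other cell type lists had 1 or 2 genes tested each, with medians of -1.17 for blood cell, 0.78 for endothelial, 0.96 for fibroblast and -0.15 for keratinocyte markers. The blank-associated list, at -3.72 over 7 against 7 libraries, was at -0.28 over the bulk-like ones.

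To ask whether the class difference at 2 nM was unlike that of the other arms, the 2 nM difference was set against the mean difference of the untreated, saline and 5 nM arms. In the libraries with at least 1000 genes no gene passed (limma adjusted p, 0.0%), and 248 had an unadjusted p under 0.05. In the bulk-like libraries, 34 of the 64 in the 4 arms, 2 genes passed (0.0173%). CYP4F3, described above, was above 0 in 1 of the 25 bulk-like libraries of the other arms (4.15 FPKM), and the difference of differences was -4.15 ± 0.70 (SE, adjusted p = 0.0039). It was at 0 in all bulk-like libraries of the untreated and 5 nM arms, against SDs of 1.05 and 1.30 in the classes at 2 nM. The pooled SE thus draws on groups without spread. Fewer bulk-like libraries detected CYP4F3 than the 8 the filter asks for, so it was tested only because other libraries also held it. APRT, which salvages adenine, did not separate the classes at 2 nM: it stood at 342 to 715 FPKM in 6 proliferative and at 1025, 637 and 774 FPKM in 3 nonproliferative libraries (-0.56, adjusted p = 1). In the untreated arm it stood at 604 to 1020 FPKM in 4 proliferative libraries and at 0 in both nonproliferative ones. In the 5 nM arm it stood at 325 to 1368 FPKM in 5 proliferative libraries and at 0, 0 and 103 FPKM in the nonproliferative ones. In the saline arm, as at 2 nM, the classes overlapped (415 to 1007 and 464 to 1336 FPKM). The difference of differences for APRT was -6.05 ± 1.18 (adjusted p = 0.036). The APRT call was lost in 9 of 14 alternatives: with a pseudocount of 0.1, without the 2 sparse proliferative libraries together, and without proliferative replicate 1, 2, 3, 4 or 6 or nonproliferative replicate 2 or 5 (adjusted p from 0.0522 to 0.217). The CYP4F3 call was lost in 3 of 14: with that pseudocount, without the 2 sparse libraries, and without nonproliferative replicate 5.

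**Figure D5:**
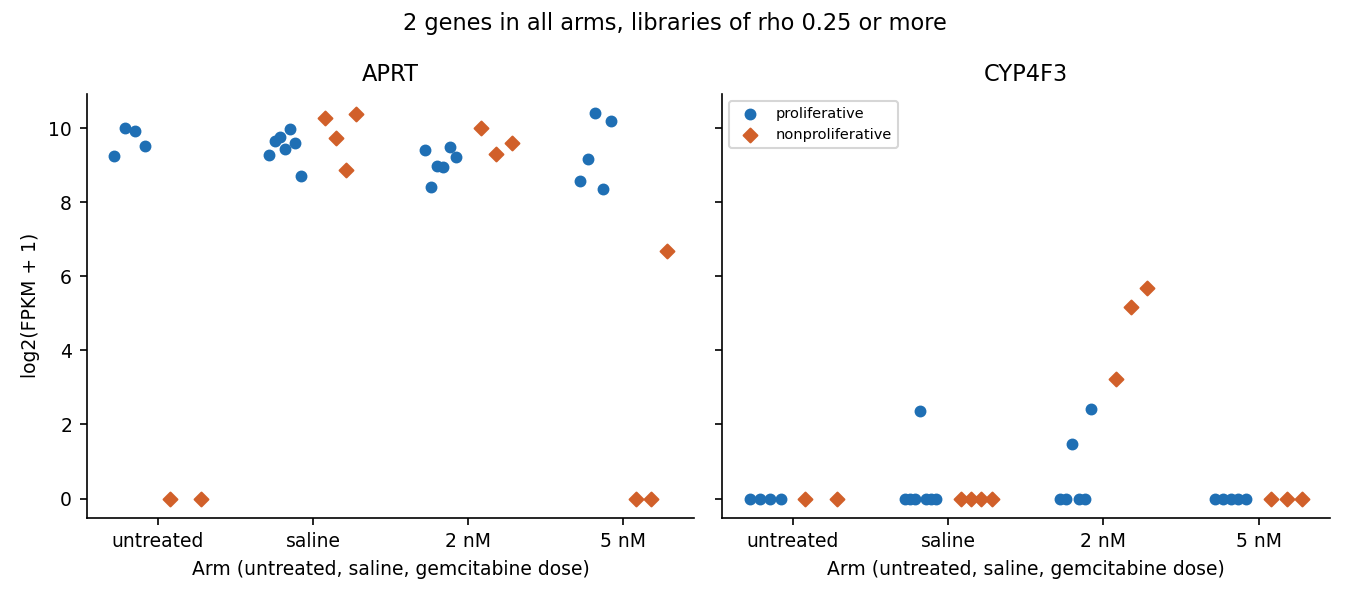
log2(FPKM + 1) of APRT and CYP4F3 in the bulk-like libraries of the 4 arms, 1 point per library. APRT is at 0 in 4 nonproliferative libraries of the untreated and 5 nM arms and high in all 9 libraries at 2 nM, and CYP4F3 is above 3 on this scale only in the 3 nonproliferative libraries at 2 nM.

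List medians were also taken in each arm's own libraries. The G2/M median was -0.51 at 2 nM and 2.14, 1.65 and 0.92 in the untreated, saline and 5 nM arms, where the medians over all genes were 0.00, 0.64, -0.02 and 0.61. The 2 nM value was 0.47 without proliferative replicates 2 and 4 and 0.41 without nonproliferative replicate 2. The other arms also held sparse libraries. The 2 untreated nonproliferative libraries held 2353 and 2196 genes, and untreated proliferative replicates 1 and 8 held 1495 and 1525. At 5 nM the nonproliferative ones held 3719 to 4478, and proliferative replicates 3 and 6 held 2506 and 1759. CDK1 was at 0 in both untreated nonproliferative libraries, above 0 in 1 of 4 saline ones (218 FPKM) and at most 1.15 FPKM in the 3 at 5 nM, beside 179 and 402 FPKM in 2 of 3 at 2 nM. TOP2A reached 0.63, 68.2 and 16.9 FPKM in the nonproliferative libraries of the untreated, saline and 5 nM arms and 180 FPKM at 2 nM. Neither gene passed the test of the difference between arms (adjusted p = 0.894 for CDK1), and the list difference was not tested. The labels name no library pool. The 2 nM and 5 nM arms use the same 16 index pairs, and some of these recur in the untreated and saline arms. Arm and any library pool therefore cannot be told apart.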

How the data were processed

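RNA was sequenced from 16 rafts of the 2 nM arm. The deposited values are FPKM per gene, with no counts, so depth is unknown and no counting interval is given; RSEM and the hg19 build were used per the submitters' processing notes, and the aligner is not given in the sources used here. Libraries were grouped by the labels. The authors' FPKM values were transformed here to log2(FPKM + 1). Genes detected (FPKM of 1 or more) in at least 8 of 52 libraries, 11560 in all, were tested with limma 3.58.1 in R 4.3.3, with its trended variance, 1 fit over 8 groups and Benjamini-Hochberg adjustment at 0.05. The fit used 52 libraries with 1000 or more genes, or 34 with a rho of 0.25 or more, of 64. Class means of genes detected and rho were compared by exact two-sided permutation. The fit was also run on simulated data with normal noise, each gene's spread being equal in all groups. Those data lack the many zeros and the groups without spread seen here, so they do not check these calls. Named genes are up to 10 called per direction with the largest difference, filled up by the smallest p, all from genes that 0.5 or more of the higher class's libraries held, up to 4 per list with the smallest p (in both library sets), and 20 fixed genes such as MKI67, CDA and KRT18; genes named for non-overlap or for their levels in single libraries were chosen after their values were seen. The 37 lists and the comparison itself were chosen with earlier results of these data known. Tables and permutations were made with scipy 1.17.1, numpy 2.4.6 and pandas 2.3.3 under Python 3.11.15, and plots with matplotlib 3.10.9.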

Additional observations from a re-analysis of the deposited data

Results flagged for a closer look

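Among 80 checks of list levels within a class, 2 single libraries stood far from the others, where chance gives about 1 in 20. The mean glycolysis level of proliferative replicate 8 was 0.0, below the other 7; that library had 472 genes. The endothelial list, of which ESAM is the only gene tested, was at 3.194 in proliferative replicate 3, above the other 7. The class difference at 2 nM differed from the mean of the other 3 arms, by the interaction test in the bulk-like libraries, for APRT (-6.05, adjusted p = 0.036, limma) and CYP4F3 (-4.15, adjusted p = 0.0039).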

How the results depend on the processing

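The differences in genes detected (1448 to 2955 on leaving out any 1 library) and in rho (0.207 to 0.324) kept their sign and missed the threshold under every alternative run. Counts of called genes did not hold. Over libraries with 1000 or more genes the 2 calls became 5 with only bulk-like libraries (none shared), 1 with genes detected as a covariate, 4 for genes detected in 3 or more 2 nM libraries, and 0 with quantile normalization, rescaled totals, a pseudocount of 0.1 or the 2 nM arm alone (limma, with 1205, 1274, 1396 and 1099 genes at an unadjusted p under 0.05); leaving out 1 library gave 0 to 5. In the bulk-like libraries, where the alternatives were chosen after seeing the data, the 5 calls became 10 with the covariate, 12 with quantile normalization, 13 with the 2 nM detection filter, 0 with the arm alone or a pseudocount of 0.1, and 1 without the 2 nM libraries under 3000 genes. Leaving out 1 library gave 1 to 16: 1 without proliferative replicate 6 or nonproliferative replicate 5, 2 without proliferative replicate 1, 2 or 4, 9 without nonproliferative replicate 2 and 16 without nonproliferative replicate 3. The comparison with the other arms moved from 0 calls to 2 in the bulk-like libraries, and from those 2 to 4 (quantile), 8 (detection filter), 0 (pseudocount 0.1, or without libraries under 3000 genes) and 0 to 12 on leaving out 1 library. The causes were not tested. The median over all genes, 0.65 in the larger set, was 0.02 with the covariate, 0.27 after quantile normalization and 1.37 with a pseudocount of 0.1. Over the named genes, 5552 values kept sign and call, 69 lost and 8 gained a call, and 233 changed sign in genes called in neither fit; of the list medians over the 1000-gene libraries 865 held and 8 moved, and the endothelial list kept no gene under 1 filter. In the bulk-like libraries 21 of 37 list medians took both signs on leaving out 1 library, for example G1/S at -0.84 and nucleotide genes at -0.90 without nonproliferative replicate 5. No paired analysis was possible because the labels give the classes no shared replicate numbers. With 3 nonproliferative bulk-like libraries and no counts, small differences and low genes cannot be resolved.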
